A study of Danio rerio with 1152 samples.

Results

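Among single cells of the zebrafish embryo at 50% epiboly, 78 of 1000 wells held transcripts of several genes of the p53 and stress response together. A well was kept with at least 2000 detected genes, where detected means at least 1 UMI (unique molecular identifier, a random tag that marks 1 cDNA molecule), and 1000 of 1152 wells passed. It was counted as positive with a UMI in at least 3 of 7 genes, named here the rule genes: MAT2AL, PHLDA3, GADD45AA, ISG15, FOXO3B, SESN1 and SESN3. The reference was the 29.8% of kept wells with none of the 7, and 624 kept wells with 1 or 2 of them lay between. The positive wells were thus chosen by their measured UMI counts of the 7 genes, and the genes themselves were picked on these same wells, so the rule genes are described below without a test.

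The tumour suppressor p53 is a transcription factor that is held low by the ubiquitin ligase MDM2 and is stabilised when DNA is damaged or cells are stressed. In vertebrates it switches on genes of cell cycle arrest, repair and apoptosis, among them MDM2 itself, which closes a negative feedback loop. Several of the rule genes belong to the brake that p53 and FOXO factors put on growth: PHLDA3 restrains the kinase AKT, AKT restrains FOXO factors, and sestrins restrain the growth kinase complex TORC1. These roles come mostly from mammalian cells, and zebrafish often carry duplicated copies, marked by the last letter of a symbol.

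Embryos came from TL/AB in-crosses and were untreated, and all groups share this background. The labels group samples only by experimental batch and, in batch 1, by plate. Caps were dissected at 50% epiboly, about 6 hours after fertilization, cells were shaken apart, and each GEO sample is 1 hand-picked cell in 1 well. Of the 1152 wells, 37 in batch 1 (plates 5 to 8), 88 in batch 2 and 27 in batch 3 fell short of 2000 detected genes, and UMI totals of the kept wells ran from 5307 to 132749. The batch (n = 3) is the replicate here; how many embryos or clutches a batch drew on is not given, so the spread between batches may be technical.

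Some wells stood apart before any comparison. Over 5000 detected genes were found in 39 kept wells, 28 of them in batch 1. These made up 18 of the 78 positive wells, with 15 in batch 1, 1 in batch 2 and 2 in batch 3, against 0 of the reference wells, a count that allows a share of up to 1.01%. A positive well of plate 5 and one of plate 7, each with all 7 rule genes and over 5000 detected genes, were close to each other: over 3361 genes, chi-square divided by its degrees of freedom was 1.09, where sampling alone gives a value near 1. Of the 20 closest pairs of wells, 16 held at least 1 well of over 5000 genes, and 4 joined a well of batch 1 with a well of batch 3. Whether wells of many genes hold RNA of more than 1 cell was not tested. For a reference well of batch 1 and one of batch 2 the same ratio was 0.50, and leaving both out left 8 genes (0.0964% of those tested) called higher and 0 lower. Results are given with and without the wells of over 5000 genes where these change a call.

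The positive wells were present in every batch. They made up 9.51% of kept wells in batch 1 (33 wells, exact binomial 95% interval 6.64 to 13.1), 8.11% in batch 2 (24 wells, 5.26 to 11.8) and 5.88% in batch 3 (21 wells, 3.68 to 8.85). Intervals cover counting error only, and the 3 overlap. On the 4 plates of batch 1 the counts were 10 of 82, 7 of 87, 9 of 86 and 7 of 92, so that no plate held most of them. Without wells of over 5000 genes, 60 of 961 wells remained, or 6.24% (4.80 to 7.96). The shares of batches 1, 2 and 3 were then 5.64%, 7.93% and 5.40%.

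The number of rule genes per well did not fall off evenly. In batch 1, 24.2% of kept wells had 0, 50.7% had 1 and 15.6% had 2 of the genes, and then 17, 3, 4, 6 and 3 wells had 3, 4, 5, 6 and 7. In batch 2 the shares with 0, 1 and 2 genes were 29.4%, 49.3% and 13.2%, and 8, 6, 5, 2 and 3 wells had 3 to 7. In batch 3 the shares were 35.6%, 46.2% and 12.3%, and 9, 2, 0, 6 and 4 wells had 3 to 7. In batches 1 and 3 more wells thus had 6 of the genes than had 4. After every well was thinned to 15000 UMIs, batch 1 had 5 wells with 4 genes and 0 with 6, against 1 and 4 in batch 3. Without wells of over 5000 detected genes the numbers were 2 and 2 in batch 1 and 2 and 5 in batch 3, so that the excess in batch 1 was lost both ways. Over all batches, 24 wells had 6 or 7 of the genes, and 9 of these had over 5000 detected genes.

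**Figure D1:**
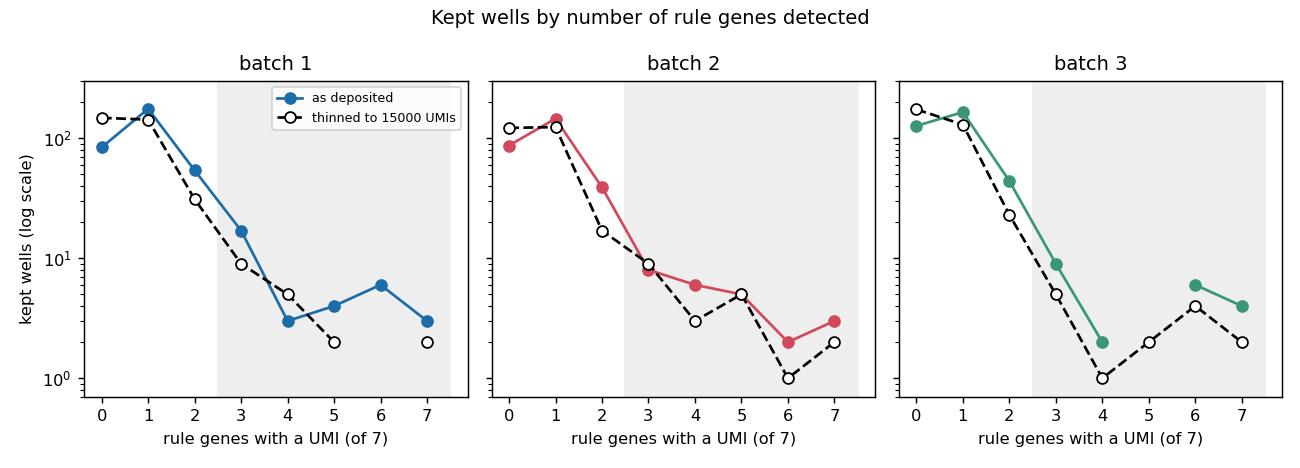
Kept wells (log scale; empty classes not drawn) by number of rule genes detected, in each batch, as deposited (filled, coloured) and after every well was thinned to 15000 UMIs (open, black); the grey area marks 3 or more genes. Counts drop steeply from 1 to 4 genes, and batch 3 has 2 wells with 4 genes but 6 wells with 6.

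Because a rule of detection takes in deeper wells, each well was thinned to 15000 UMIs, with 36 shallower wells left out. Then 52 of 964 wells met the rule, or 5.39% (4.05 to 7.01), against 7.8% (6.21 to 9.64) without thinning. By batch the thinned shares were 5.29% (18 wells), 7.07% (20 wells) and 4.11% (14 wells). Batch 1 therefore had the highest share at full depth and batch 2 after thinning. At full depth batch 2 was also the highest without wells of over 5000 genes. Median totals were 61742 UMIs in positive and 51856.5 in reference wells of batch 1, 54096 and 43675 in batch 2, and 35063 and 34002 in batch 3. Detected genes had medians of 4794 and 3296 in batch 1, 3510 and 3175 in batch 2, and 3254 and 3085 in batch 3, so that the gap between classes was widest in batch 1.

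Wells just inside and just outside the threshold were close in amount when pooled over batches, though less so in batch 2. The 7 genes summed to a median of 2.64 UMIs per 10000 (range 0.41 to 21.01) in the 34 wells with 3 genes, and to 1.68 (0.26 to 21.12) in the 13.7% of kept wells with 2. By batch the medians with 3 and with 2 genes were 2.34 and 1.27 in batch 1, 6.10 and 1.80 in batch 2, and 2.26 and 2.00 in batch 3. Among wells with 2 genes, SESN1 with SESN3 made up 55 wells and ISG15 with SESN3 36. Among wells with 3, the sets FOXO3B, SESN1, SESN3, then ISG15, FOXO3B, SESN3, and then ISG15, SESN1, SESN3 made up 7 wells each. The amount stood higher in the 11 wells with 4 genes, with a median of 15.70 (1.21 to 40.72), and in the 10 wells with all 7, at 26.97 (11.23 to 39.52). The rise was not even, with medians of 8.99 in the 9 wells with 5 genes and 17.76 in the 14 with 6. The ranges of wells with 3 and with 4 genes overlap.

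Over all kept wells the sestrins were the most widespread of the rule genes. In positive wells ISG15 (59 wells) and FOXO3B (56) were found more often than SESN1 (50). SESN3, a sestrin that FOXO factors induce in mammals, had a UMI in 634 of 1000 kept wells and in 77 of the 78 positive ones, so that it served mainly as the first of the genes to be met. Its level in positive wells was 4.28, 7.23 and 6.49 UMIs per 10000 in batches 1, 2 and 3, against 0.732, 0.973 and 1.02 in wells with 1 or 2 rule genes. Positive wells lay above the intermediate wells in every batch, as their choice favours. SESN1, a p53-induced sestrin in mammals, had a UMI in 140 kept and 50 positive wells, with 0.503, 1.44 and 0.839 UMIs per 10000 in the positive wells of the 3 batches. Batch 2 was the highest for both sestrins.

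PHLDA3 and GADD45AA are the rule genes known best as p53 targets. PHLDA3, whose protein competes with AKT for membrane lipids, was detected in 60 kept wells, 45 of them positive, at 0.577, 1.23 and 1.06 UMIs per 10000 in the positive wells of batches 1, 2 and 3. GADD45AA, one of a family named for growth arrest and DNA damage, was detected in 39 kept wells, 31 of them positive, at 0.286, 0.812 and 0.790. For both genes batch 1 was lowest and batch 2 highest. In positive wells of up to 5000 genes GADD45AA was highest in batch 3, at 0.119, 0.780 and 0.903 in batches 1, 2 and 3. Where GADD45AA was detected in a positive well, the median count was 5 UMIs and the highest 31, and in 7 of the 31 wells it was a single UMI.

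FOXO3B and ISG15 are known from other arms of the stress response. FOXO3B, a forkhead factor of nutrient and oxidative stress, had a UMI in 83 kept and 56 positive wells, with 0.480, 1.34 and 1.06 UMIs per 10000 in the positive wells. ISG15, a ubiquitin-like protein that interferon induces, had a UMI in 11.7% of kept wells and in 59 of the 78 positive ones, with 0.974, 3.98 and 2.84. In positive wells with ISG15 the median was 6 UMIs and the highest 89. Again batch 1 stood below batches 2 and 3 in both genes.

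MAT2AL was the rarest of the 7. Its symbol marks it as a relative of methionine adenosyltransferase, the enzyme that makes S-adenosylmethionine. A UMI was found in 33 kept wells, of which 27 were positive, 6 lay in between and, by the rule, 0 in the reference. Its level in positive wells was 0.318, 0.909 and 0.815 UMIs per 10000 in batches 1, 2 and 3, and 1 well of batch 2 held 62 UMIs. Only 2 of 34 wells with exactly 3 rule genes had it, against 25 of 44 wells with 4 or more.

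**Figure D2:**
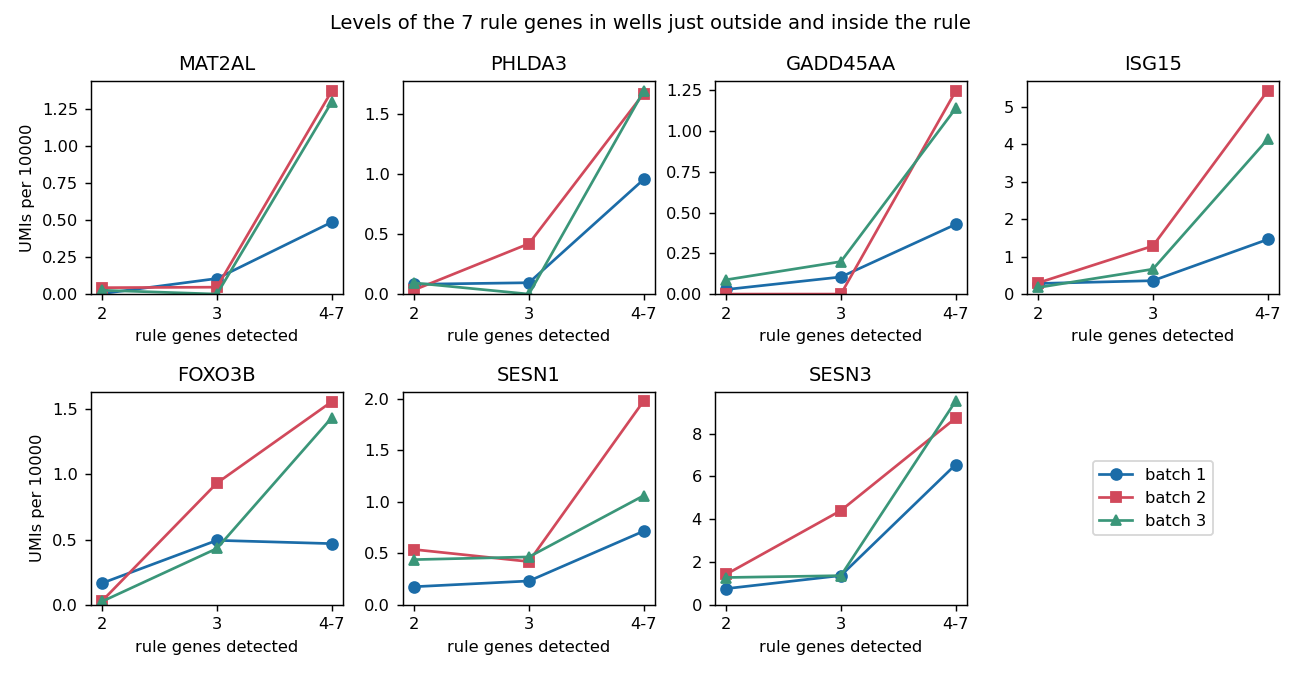
Levels of the 7 rule genes (UMIs per 10000, linear axes from 0) in wells with 2, 3 and 4 to 7 rule genes, with 1 line per batch; reference wells are at 0 by the rule and are not drawn. MAT2AL and GADD45AA stay under 0.2 up to 3 genes and reach 0.428 to 1.37 with 4 or more, while SESN3 is above 0.7 in every class.

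The rule genes occurred in the same wells. For each gene, wells were sorted by how many of the other 6 genes they held, so that the gene itself played no part in the sorting. MAT2AL was found in 0.334% of wells with none of the other 6 (1 well) and in 32.9% of wells with 3 or more (25 of 76, 22.5 to 44.6). PHLDA3 went from 2 of 300 wells to 39 of 72, GADD45AA from 2 of 300 to 25 of 72, and FOXO3B from 1.97% to 63.3%. Detection of ISG15 went from 6.29% to 66.7%, of SESN1 from 9.15% to 54.8%, and of SESN3 from 58.8% to 97.8%. Leaving out wells of over 5000 genes, the shares in wells with 3 or more of the others were 32.8% for MAT2AL, 49.1% for PHLDA3, 24.1% for GADD45AA, 63.6% for FOXO3B, 62.8% for ISG15, 44.7% for SESN1 and 96.9% for SESN3. GADD45AA moved the furthest, from 34.7% to 24.1%. The 7 genes were picked as a group for varying together in these wells, so these shares describe that choice.

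To ask what else differed, UMI counts of each class were added up within each batch, and 8295 genes with a UMI in at least 5% of kept wells were compared between positive and reference wells with edgeR's quasi-likelihood test, the batch as a block and Benjamini-Hochberg adjustment. The rule genes were left out. In all 8 genes, or 0.0964% of those tested, were called higher at an adjusted p under 0.05, and 0 were called lower. At an unadjusted p under 0.05 2.74% of the genes were higher and 2.68% lower, and DESeq2 called 25 higher (0.301%) and 2 lower (0.0241%). The rule genes came from the leading genes of a grouping of the same wells over many genes, so these p-values are not independent of that choice. They weigh the size of a difference against its variation between batches, which is estimated with information shared across genes.

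MDM2 and CCNG1, both classical p53 targets, rose in the positive wells. MDM2, the ligase that marks p53 for destruction, stood at 1.2, 2.40 and 1.62 UMIs per 10000 in positive wells of batches 1, 2 and 3, against 0.330, 0.555 and 0.411 in reference wells. The lowest positive value was over the highest reference value, and the difference was 1.96 on the log2 scale (SE 0.23, adjusted p = 0.00205). A UMI of MDM2 was found in 83.3% of positive and 30.2% of reference wells. After thinning to equal depth the classes were drawn again, with 52 positive and 444 reference wells, and the shares in these were 82.7% and 26.1%. They are not the same wells as before thinning. CCNG1, cyclin G1, which p53 induces and which acts back on MDM2, stood at 10.95, 12.83 and 13.16 against 7.93, 6.92 and 6.78, a log2 difference of 0.74 (SE 0.10, adjusted p = 0.00607). A UMI of it was found in 78 of 78 positive and 99.7% of reference wells, so its change was one of amount and not of detection.

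**Figure D3:**
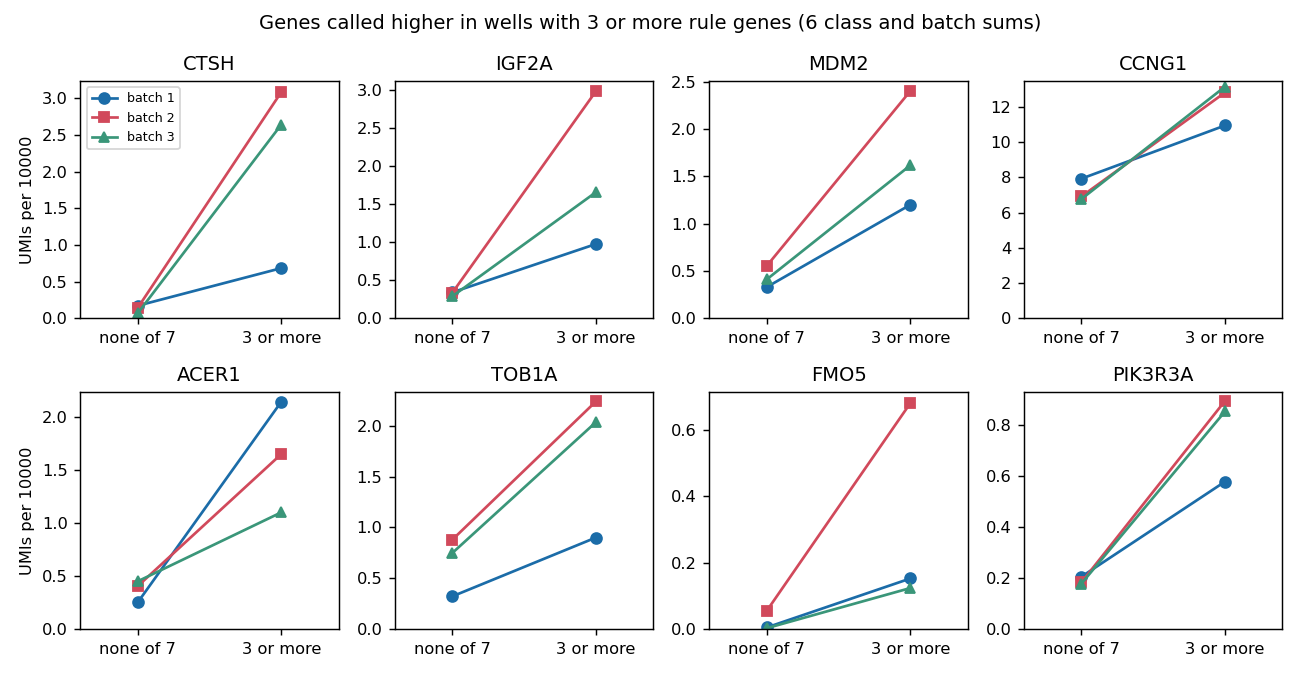
Levels (UMIs per 10000, linear axes from 0) of the 8 genes called higher, in reference wells with none of the 7 rule genes and in wells with 3 or more; each point is a sum over 1 class and batch, and lines join the 2 classes of a batch. Every line rises, from 0.330 to 1.2 for MDM2 in batch 1, for example.

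IGF2A and PIK3R3A were also called. IGF2A, an insulin-like growth factor, stood at 0.974, 2.98 and 1.65 UMIs per 10000 in positive and 0.339, 0.334 and 0.287 in reference wells, a log2 difference of 2.38 (SE 0.30, adjusted p = 0.00205). PIK3R3A, a regulatory subunit of phosphoinositide 3-kinase, stood at 0.577, 0.893 and 0.852 against 0.205, 0.182 and 0.178, a difference of 1.98 (SE 0.35, adjusted p = 0.0414). The classes did not overlap between batches for either gene. PIK3R3A lost its call without batch 2 (adjusted p = 0.231), without batch 3 (0.131) and against a reference matched on total UMIs (0.190).

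CTSH, FMO5, ACER1 and TOB1A complete the calls. CTSH, the lysosomal protease cathepsin H, stood at 0.683, 3.09 and 2.64 against 0.171, 0.142 and 0.0678, a log2 difference of 3.86 (SE 0.47, adjusted p = 0.00205). FMO5, a flavin-containing monooxygenase, was rare in the reference, with a UMI in 2.01% of wells against 32.1% (log2 difference 4.37, SE 0.74, adjusted p = 0.0306), and 1 well gave 25.2% of its UMIs in positive wells. Without wells of over 5000 genes CTSH had a log2 difference of 3.92 (adjusted p = 0.0609) and FMO5 of 4.11 (0.112). TOB1A, of the antiproliferative BTG/Tob family, stood at 0.900, 2.24 and 2.04 against 0.321, 0.879 and 0.748 (log2 difference 1.4, SE 0.21, adjusted p = 0.0103). Against a reference matched on total UMIs, TOB1A (adjusted p = 0.261), FMO5 (0.318) and ACER1 (0.326) lost their calls, as PIK3R3A did. TOB1A also lost its call without keratin-high wells (0.0782), and FMO5 without batch 2 (0.433).

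ACER1, an alkaline ceramidase, moved with the keratins. It stood at 2.14, 1.65 and 1.1 UMIs per 10000 in positive and 0.250, 0.403 and 0.449 in reference wells, a log2 difference of 2.12 (SE 0.31, adjusted p = 0.00802). A single well gave 26.9% of the ACER1 UMIs in positive wells. Among positive wells its level was 5.02 in 23 wells with high keratin counts and 0.376 in the 55 others. With keratin-high wells left out of both classes the log2 difference was 0.45 (adjusted p = 1), and without wells of over 5000 genes it was 1.68 (adjusted p = 0.981).

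The calls depended in part on batch 2. Without it 5 genes (0.0603% of those tested) were called, MDM2 (log2 difference 1.90, adjusted p = 0.0338), IGF2A (1.99, 0.0435), CTSH (3.52, 0.0435) and ACER1 (2.20, 0.0435) among them. CCNG1 then had an adjusted p of 0.0605 with a log2 difference of 0.69. Without batch 1, 24 genes (0.289%) were called higher and 3 (0.0362%) lower, and without batch 3 there were 23 (0.277%) and 1 (0.0121%). MDM2, IGF2A, CTSH and ACER1 were called with each batch left out.

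A list of 54 p53 targets and regulators other than the rule genes was then read as a whole; 41 were in the table and 28 were tested. Of these, 2 were called higher, MDM2 and CCNG1, and 0 lower, where 0.0964% of all genes tested were called higher. The median log2 difference of the list was 0.47, against -0.04 over all genes tested, and 0.23 without batch 3. A positive difference was found for 18 of the 28 and for 3798 of all 8295 genes. At an unadjusted p under 0.05 the list held 12 genes higher and 0 lower, where 2.74% of all genes were higher and 2.68% lower. Summed over the genes found, it stood at 38.1, 47.7 and 46.2 UMIs per 10000 in positive wells of batches 1, 2 and 3 and at 29.2, 30.2 and 29.6 in reference wells, without overlap. CCNG1 alone gave 10.95, 12.83 and 13.16 of these sums in positive and 7.93, 6.92 and 6.78 in reference wells. The list was drawn up with earlier results of these wells known.

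Other members missed the threshold. TP53INP1, a p53-induced protein of autophagy and cell death, stood at 0.706, 1.81 and 1.38 UMIs per 10000 against 0.378, 0.307 and 0.444, without overlap (log2 difference 1.67, SE 0.31, adjusted p = 0.0573). CASP8, the initiator caspase of death receptors, had a log2 difference of 2.18 (SE 0.41, adjusted p = 0.0573), with a UMI in 47.4% of positive and 13.1% of reference wells. When wells of over 5000 genes were left out, 10 genes (0.121% of those tested) were called higher and 1 (0.0121%) lower. TP53INP1 and CASP8 then passed, with adjusted p-values of 0.00895 and 0.0107, and the list had 4 calls. The antiproliferative genes BTG2 and BTG1 had log2 differences of 0.50 (adjusted p = 0.235) and 0.90 (0.711). GADD45BB and GADD45BA, relatives of the rule gene GADD45AA, had 1.97 (0.357) and 0.76 (0.561), and the effector of apoptosis BAXA had 0.58 (0.886). BAXA was lower in positive than in reference wells of batch 2, at 1.11 against 1.27 UMIs per 10000, and GADD45BA in batch 3, at 1.51 against 1.54.

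CDKN1A, the cell cycle inhibitor p21 and the best known p53 target, was uneven between batches. It stood at 0.0415 UMIs per 10000 in positive and 0.0910 in reference wells of batch 1, at 0.552 and 0 in batch 2, and at 0.309 and 0.0374 in batch 3. The order of the classes was thus reversed in batch 1, and the log2 difference of 2.87 had an SE of 1.36 (adjusted p = 0.889). Without batch 1 the difference was 4.88 (SE 0.90, adjusted p = 5.63e-05), and CDKN1A was then among the calls. That was the only 1 of 28 alternative settings in which CDKN1A was called. It was detected in 24.4% of positive and 3.02% of reference wells. PPM1DB, a copy of the phosphatase that switches p53 signalling off, was likewise uneven, with no UMI in the positive wells of batch 3.

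Among the lower values of the list, TIGARB had the lowest log2 difference, -1.20 (adjusted p = 0.961). RRM2B, a subunit of ribonucleotide reductase, had -0.96 (0.889) and APAF1 -0.84 (0.961). The damage recognition factors DDB2 and XPC had -0.19 (0.978) and -0.24 (0.961). None of these passed the test.

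**Figure D4:**
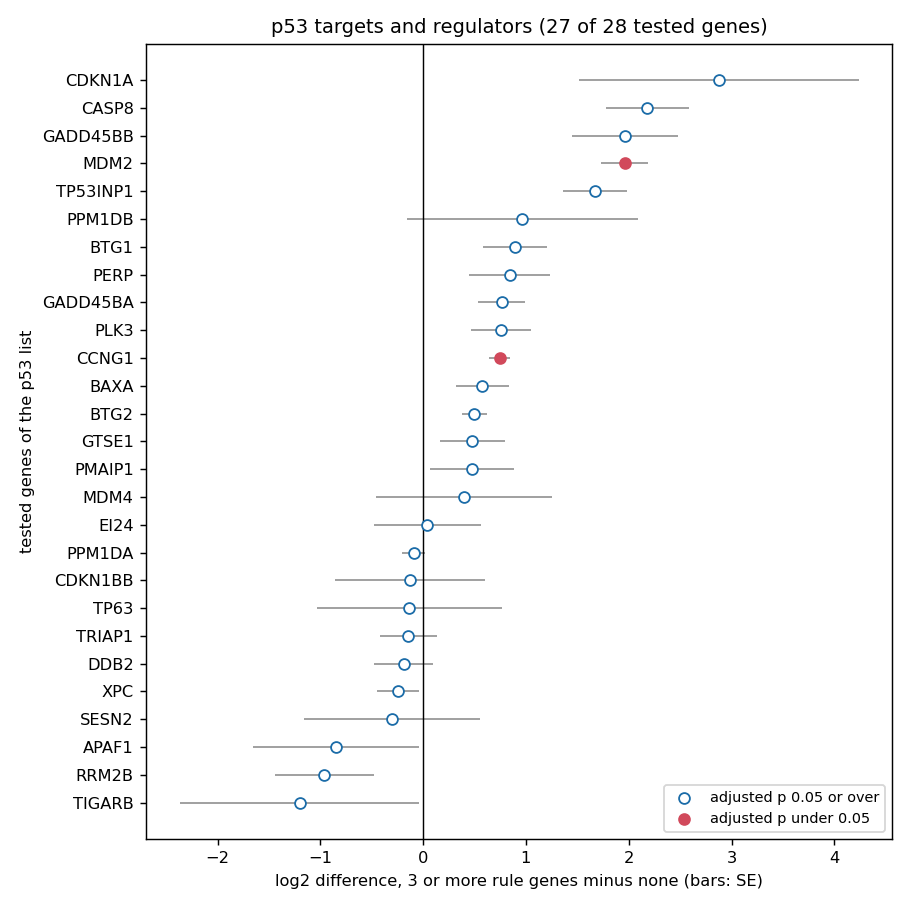
Log2 differences between positive and reference wells for 27 of the 28 tested genes of the p53 list, ordered by size, with bars of 1 SE from edgeR; filled points have an adjusted p under 0.05. MDM2 (1.96) and CCNG1 (0.74) are filled with short bars, while CDKN1A (2.87) has the widest bar of those drawn.

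Levels were also read by the number of rule genes in a well, with no test. MDM2 stood at 0.430, 0.478 and 0.408 UMIs per 10000 in wells with 0, 1 and 2 rule genes, then at 1.18 with 3 and 1.93 with 4 or more. Wells with 1 or 2 rule genes were thus near the reference. By batch, wells with 4 or more genes had MDM2 at 1.09, 3.08 and 2.12, and wells with 2 had 0.273, 0.516 and 0.501. CCNG1 went from 7.22 with 0 genes to 8.24, 8.15, 10.0 and 13.2 with 1, 2, 3 and 4 or more.

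Pooled over batches, CTSH and CASP8 were highest in the wells with 4 or more rule genes, though CTSH was not called between those wells and the reference (log2 difference 4.54, adjusted p = 0.216). CTSH stood at 0.127, 0.159, 0.151 and 0.0773 UMIs per 10000 in wells with 0 to 3 rule genes and at 2.88 with 4 or more. CASP8 stood at 0.174, 0.168, 0.167 and 0.256, and then at 1.04, though in batch 3 it was already at 0.997 in the 9 wells with 3 genes. IGF2A went in smaller steps, from 0.320, 0.299 and 0.373 to 0.779 and 2.30. These are sums over wells of all batches and were not tested class by class.

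**Figure D5:**
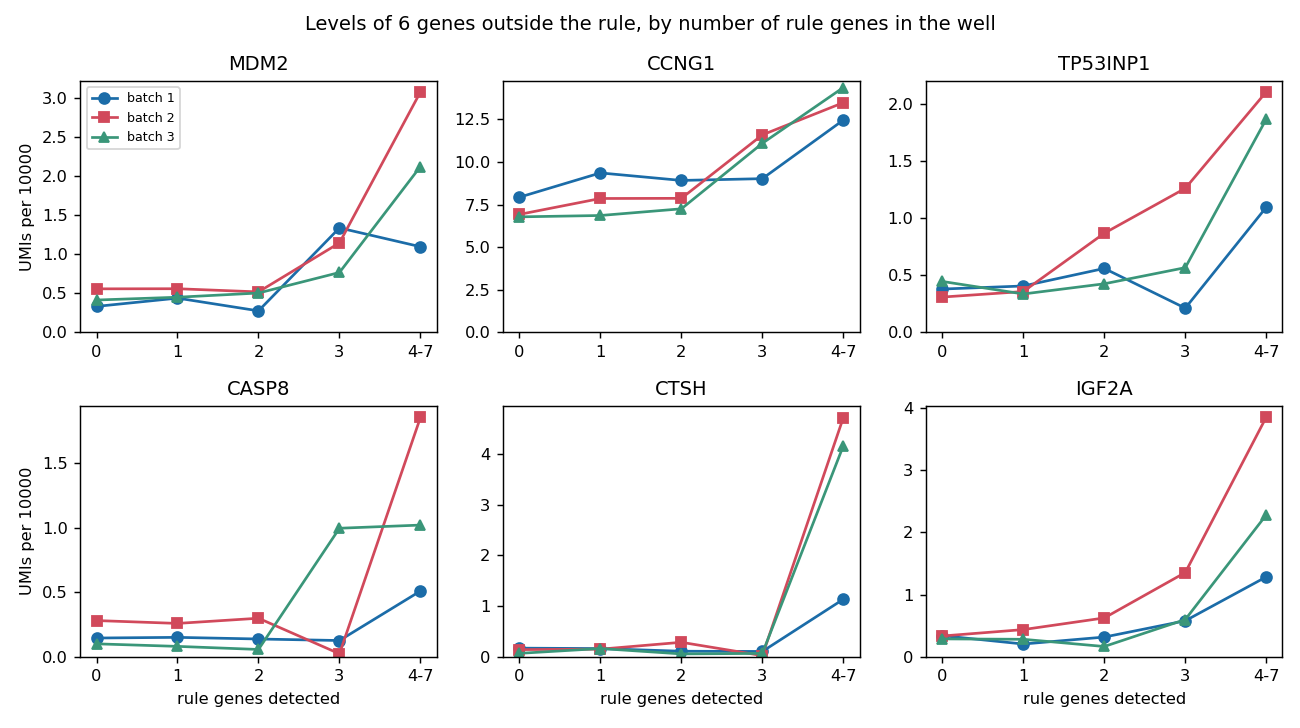
Levels (UMIs per 10000, linear axes from 0) of 6 genes outside the rule in wells with 0, 1, 2, 3 and 4 to 7 rule genes, with 1 line per batch. In every batch MDM2 stays under 0.6 up to 2 genes and is above 1 with 4 or more; CTSH stays under 0.3 up to 3 genes.

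Of the 18 positive wells of over 5000 detected genes 15 were in batch 1, so they were set against the other positive wells within that batch, as sums with no test. MDM2 stood at 1.53 UMIs per 10000 in these 15 wells, at 0.815 in the 18 other positive wells of batch 1 and at 0.615 in 13 wells of over 5000 genes with fewer than 3 rule genes. CTSH stood at 0.749, 0.607 and 0.0863 in the same sets. Both were thus higher in the positive wells of many genes than in the other positive wells of batch 1. The order was the other way for TP53INP1, at 0.439, 1.01 and 0.496, and for CASP8, at 0.181, 0.527 and 0.0216. Batches 2 and 3 had 1 and 2 such positive wells, too few to compare.

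With membership set at 4 or more rule genes, 44 wells remained (16, 16 and 12 by batch), and 17 genes, or 0.205%, were called higher and 5, or 0.0603%, lower. The p53 list then had 5 calls: MDM2 (log2 difference 2.18, adjusted p = 3.17e-06), CCNG1 (0.89, 1.90e-06), TP53INP1 (2.11, 7.23e-05), CASP8 (2.60, 0.000150) and BTG2 (0.68, 0.0128). APLNRB, a receptor for apelin and Toddler peptides in gastrulation, was higher by 1.60 (adjusted p = 3.35e-05), and FOXI1, a forkhead factor of ventral ectoderm, by 2.63 (0.00283). With 3 or more rule genes they had 1.28 (0.106) and 2.15 (0.116). At 4 or more, the margin and mesendoderm list that holds APLNRB had a median log2 difference of -0.70. The lists that hold FOXI1 had medians of 0.00 (ventral and BMP) and 0.02 (animal side and ectoderm). Of the 5 lower genes, CXCR4A, a chemokine receptor used as an endoderm marker, fell by 0.70 on the log2 scale (adjusted p = 0.000557) and FSCN1A, an actin-bundling protein of the margin, by 0.64 (0.00405). With 3 or more rule genes CXCR4A had stood at 9.97, 5.06 and 7.85 UMIs per 10000 against 12.05, 11.03 and 10.49, without overlap, at an adjusted p of 0.115. FSCN1A had a log2 difference of -0.34 in that comparison (adjusted p = 0.844). In batch 2 it was higher in positive than in reference wells, at 9.14 against 7.72.

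Other stress programmes gave no call in the main comparison, where 0.0964% of all genes tested were called higher. Of the integrated stress and unfolded protein response, 21 genes were tested with a median log2 difference of 0.04. SLC3A2B, the heavy chain of amino acid exchangers, came nearest, at 1.89 (SE 0.34, adjusted p = 0.0520). It was called in 8 of 29 alternative settings. Heat shock genes (16 tested) had a median of -0.13 and interferon and antiviral genes (9 tested) 0.26, which turned to -0.30 without batch 1 and to -0.63 with 4 or more rule genes. Immediate early genes of handling and dissociation (13 tested) had a median of 0.41. The 29 of them in the table summed to 7.04, 9.40 and 7.75 UMIs per 10000 against 6.67, 6.41 and 6.37. NFKBIAA, the inhibitor of NF-kappaB, had the smallest p of the 13 tested (log2 difference 2.19, adjusted p = 0.375). Medians were -0.11 for FOXO, insulin and TORC1 genes (22 tested) and -0.01 for methionine, folate and polyamine genes (22 tested), the pathways of FOXO3B, the sestrins and MAT2AL.

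Lists of damage, death and division held no call, where 0.0964% of all genes tested were called higher and 0 lower. The median log2 difference was -0.07 for 30 genes of the DNA damage checkpoint and repair, -0.03 for 23 of the apoptosis machinery, -0.16 for 31 of S phase and -0.04 for 34 of G2 and mitosis. Of the S phase genes 4 of 31 had a positive difference, against 3798 of all 8295 genes. At an unadjusted p under 0.05, 5 of the 31 were lower and 0 higher, where 2.68% of all genes were lower. CCNE2, the S phase cyclin E2, stood at 6.24, 4.49 and 5.17 UMIs per 10000 against 6.66, 6.33 and 6.87, without overlap, but had an adjusted p of 0.577. For 76 ribosomal protein genes the median was -0.08 and for 19 housekeeping genes -0.04.

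Markers of the enveloping layer, the outer epithelium, gave no call in the main comparison, where 0.0964% of all genes were called higher. Wells with high counts of KRT4, KRT5, KRT8, KRT18 and CYT1, set apart by a Gaussian mixture of 2 components, were 14 of 33 positive and 9 of 84 reference wells in batch 1. In batch 2 they were 5 of 24 and 12 of 87, and in batch 3 the order turned, with 4 of 21 positive wells and 26.8% of the reference wells. Of 21 tested genes of the layer 0 were called, 13 were higher at an unadjusted p under 0.05 (2.74% of all genes were), and the median log2 difference was 0.86. The 25 genes of the list in the table summed to 41.7, 49.4 and 35.9 UMIs per 10000 in positive and 27.3, 30.4 and 29.05 in reference wells. The claudins CLDNE and CLDNB had 1.67 (adjusted p = 0.0972) and 1.83 (0.158). DESeq2 called 4 of the 21 genes higher, against 0.301% of all genes. Without batch 3 the calls were 5 (0.277% of all genes), without batch 1 they were 3 (0.289%), and without batch 2 they were 0 (0.0603%). All 25 genes of the list in the table had a UMI in positive wells.

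With keratin-high wells left out of both classes, 55 positive wells remained and 18.5% of the reference wells were dropped, and 4 genes (0.0482%) were called higher: MDM2 (log2 difference 1.99, adjusted p = 0.00524), CCNG1 (0.81, 0.00524), IGF2A (2.56, 0.00524) and FMO5 (5.24, 0.0190). The differences of MDM2, CCNG1 and IGF2A were as large as with those wells. The median for the enveloping layer list was then 0.23. That list holds the keratins that set those wells apart, so its lower median follows in part from leaving them out. CTSH kept its size at 3.92 but had an adjusted p of 0.191, and TP53INP1 had 1.45 (0.897). A stricter cut, added after seeing the data, left out every well whose mixture probability of high keratin was over 0.1, and 20 positive wells remained. MDM2 lost its call there (1.75, SE 0.51, adjusted p = 0.400), while IGF2A (2.41, 0.0428) and CTSH (4.24, 9.74e-08) were called.

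Markers of the yolk syncytial layer, the nuclei under the blastoderm that were peeled off with the yolk, gave no call in the main comparison either. Of 20 listed genes 15 were in the table and 7 were tested, with a median log2 difference of 1.62. Calls numbered 0, where 0.0964% of all genes were called higher. All 7 had a positive difference, against 3798 of all 8295 genes. At an unadjusted p under 0.05, 5 of the 7 were higher and 0 lower, where 2.74% of all genes were higher. With thinned wells 1 gene of the list was called higher, where 16 of all genes were. The 15 genes in the table summed to 5.29, 6.36 and 5.44 UMIs per 10000 in positive and 3.67, 3.6 and 4.29 in reference wells. HNF4A, a defining factor of the layer, stood at 0.120, 0.106 and 0.111 against 0.00455, 0.00480 and 0.0164 (log2 difference 3.80, SE 1.01, adjusted p = 0.375), with a UMI in 15.4% of positive and 2.01% of reference wells. A single well gave 35.4% of the HNF4A UMIs in positive wells. APOA1B had no UMI in positive wells, and APOA2 and APOEA had none in reference wells. The part of either layer in the called genes, beyond the wells left out above, was not tested.

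Genes of position in the embryo gave 1 call in the main comparison, where 0.0964% of all genes were called higher. The 25 tested genes of the margin and mesendoderm had a median log2 difference of -0.30, and TOB1A was the call. The sum over the 26 in the table was lower in positive wells of batches 1 and 3 (28.7 against 32.9, and 38.5 against 46.5 UMIs per 10000). In batch 2 it was higher (43.1 against 33.7). Medians were -0.12 for dorsal genes (10 tested), -0.12 for ventral and BMP genes (18), -0.03 for animal genes (20) and -0.09 for endoderm genes (7), with 0 calls in each. Germ cell genes (13 tested) and maternal genes (16) had medians of 0.00. MXTX2, a yolk syncytial factor, varied most between batches, at 0.0554, 0.479 and 0 UMIs per 10000 in positive wells of batches 1, 2 and 3.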

How the data were processed

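Per the labels' protocols, cells were picked by hand into wells and their 5' cDNA ends were sequenced, stranded, with a tag of 5 random bases (1024 possible tags). Bowtie and the build Zv9 are named in the submitters' processing notes; how reads matching several gene copies were counted is not given in the sources used here, so values of near-identical copies are uncertain. The authors deposited raw UMI counts for 13902 genes in 1152 wells. The highest count was 975, so different molecules of abundant genes can share a tag and their counts are compressed.

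From these counts, sums per class and batch were fitted with edgeR 4.0.16 in R 4.3.3 (robust quasi-likelihood, TMM scaling, batch block). Kept wells numbered 347, 296 and 357 in batches 1, 2 and 3, and reference wells 84, 87 and 127. SEs are the difference over the root of F. Levels are UMIs per 10000 over summed wells. On simulated sums of this comparison (8295 genes, 200 changed), the share called was 90% at an 8-fold change, 54% at 4-fold, 34% at 2-fold and 18% at 1.5-fold, with 6 false calls. The adjustment is less strict where many genes change, so these shares may be too high for the real comparison, which called 8 genes. No doublet caller was run, since cells were picked by hand. Keratin-high wells have a posterior over 0.5 in a mixture on mean log2(1 + level) of 5 keratin genes (scikit-learn 1.9.0). DESeq2 1.42.0, other scalings, filters, thresholds, references and left-out wells, batches and rule genes were tried.

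Members, the 22 lists and the tests were chosen with earlier results of these data known. Named genes are the rule genes, up to 15 highest and 12 lowest calls with 1 direction in 3 batches, up to 5 called (else 2 tested) members per list, any tested gene of the p53 list and the 3 list genes of widest range between batches. APLNRB and FSCN1A are named from the calls at 4 or more rule genes, after their values were seen. Promoter motifs were not analysed here, since no sequence of the build was used. Results for 2 genes are not reported here.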

Additional observations from a re-analysis of the deposited data

How the results depend on the processing

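Against 8 genes higher and 0 lower, counts were 17 and 5 with 4 or more rule genes, 15 and 2 with 5 or more (added after seeing the data), and 2 and 1 with 2 or more. All other kept wells as reference gave 19 higher, and wells with 1 rule gene 16. A reference matched on total UMIs gave 4, thinned wells 16 and 8, and wells of up to 5000 genes 10 and 1. Without keratin-high wells the count was 4; without every well of keratin posterior over 0.1 (added after seeing the data; 20 positive wells remain) it was 3 and 2. Leaving 1 gene out of the rule gave 12 and 19 and 18 for FOXO3B, SESN1 and SESN3, with 2, 1 and 5 lower for ISG15, SESN1 and SESN3. No batch block gave 4, no gene filter 39 and 14, DESeq2 25 and 2. Leaving out 1 batch gave 5 to 24 higher and 0 to 3 lower. The cause was not tested. IGF2A was called in 28 of 29 alternatives, MDM2 in 27, CCNG1 in 26, TOB1A in 23, ACER1 in 18 and PIK3R3A in 17, CTSH in 25 of 28 and FMO5 in 20 of 28. The sign turned without wells of keratin posterior over 0.1 for ACER1 (-0.36), CLDNE (-1.18) and CLDNB (-1.50), and for CLDNB without keratin-high wells (-0.23). CLDNE was called in 9 and CLDNB in 8 of 29 alternatives. The share of positive wells was 5.29% in batch 1 after thinning. With 2 or more rule genes it was 25.1%, 21.3% and 18.2% in batches 1, 2 and 3. With 4 or more it was 4.61%, 5.41% and 3.36%. CDKN1A was called in 1 of 28 alternatives, the one without batch 1 (4.88, adjusted p = 5.63e-05). Genes with few UMIs per class and batch have wide errors. Single wells could not be paired, because their replicate numbers are accession order. The sums of the classes were compared within batches, with batch as the block.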
